A study of Mus musculus with 4 samples.

Results

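Linker histone H1 genes were followed through the cell types of mouse lung adenocarcinomas by single-cell RNA sequencing. The genes were Hist1h1a, Hist1h1b, Hist1h1c, Hist1h1d, Hist1h1e and H1f0, and all 6 were found by symbol among the 28006 features of the 4 deposited matrices. They had been chosen by their measured levels, which were lower in lymphocytes and neutrophils of the KPF1F2 library made before depletion. The KPF1F2 to KP differences before depletion are therefore a description of that choice. The libraries made after depletion, and the cycling cells set against other cells of the same library, were not used to choose the genes.

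The 4 libraries, 1 per group, were KPF1F2 post-depletion, KP post-depletion, KPF1F2 pre-depletion and KP pre-depletion. KPF1F2 mice were labelled Foxa1flox and Foxa2flox, and KP mice Foxa1flox/+ and Foxa2flox/+. All mice were of mixed 129/B6 strain and carried KrasFSF-G12D, p53frt and Rosa-FSF-CreERT2. Tumours of all groups were started with Ad5-mSPC-FlpO, an adenovirus in which the promoter of surfactant protein C, a gene of alveolar type 2 cells, drives the recombinase Flp. All mice were given tamoxifen at 120 mg/kg in 4 injections, 1 a day, starting from week 10, and tumours were taken in week 12. The FSF cassette keeps CreERT2 silent until Flp has acted, so Cre is meant to act in tumour cells and not in leukocytes or stroma. Post-depletion samples had lost cells that carry CD45 (leukocytes) or CD31 (endothelium) on magnetic columns. The sources used here give neither the age of the mice nor how many went into a library. The series title names the question, which is what FoxA1 and FoxA2 do for growth and identity of NKX2-1-positive lung adenocarcinoma.

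H1 proteins bind the nucleosome where DNA enters and leaves it, hold the linker DNA and help chromatin to fold. Hist1h1a to Hist1h1e lie in the large histone cluster Hist1 and belong to the replication-dependent histone genes, which are transcribed mainly while DNA is copied. The mRNAs of such genes usually end in a stem-loop in place of a poly(A) tail, and the stem-loop is bound by the protein encoded by Slbp. H1f0 is a replacement H1 with a polyadenylated mRNA, known from differentiated cells that divide little. The libraries were primed on poly(A), so a count of a Hist1h1 gene reads its polyadenylated or A-primed transcripts, and levels were compared within a gene and not between genes.

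The matrices held 4415, 8536, 4662 and 5963 barcodes in KPF1F2 post-depletion, KP post-depletion, KPF1F2 pre-depletion and KP pre-depletion, with 47805086 to 63010016 unique molecular identifiers (UMIs, counted RNA molecules) per library. After filtering, 2475, 3375, 3377 and 3616 cells were left in the same libraries, with medians of 16443, 9578, 7061 and 8281.5 UMIs, and 57 of the 12843 cells had a barcode that occurred in more than 1 library. Cells fell into 31 clusters, made without histone or cell cycle genes, and each was called after its markers as X-like. T cell-like cells had Cd3e at 685 CPM (the UMIs of a gene scaled by all UMIs of the summed cells to a common total) in KPF1F2 and 326 CPM in KP, and B cell-like cells had Cd79a at 3446 and 3258 CPM in KPF1F2 and KP. S100a8 in neutrophil-like cells stood at 44887 CPM in KPF1F2 and 16654 CPM in KP. Epithelial-like cells held Nkx2-1 at 157 to 204 CPM in the 4 libraries. They made up 78.7% and 96.2% of cells post-depletion in KPF1F2 and KP, and 5.77% and 21.6% pre-depletion. The features named Foxa1 and Foxa2 had 0 UMIs in these cells in every library. A piece of the gene listed as Foxa1_2 was at 3.79 CPM in KPF1F2 and 16.9 CPM in KP post-depletion, and at 10.7 and 17.1 CPM in KPF1F2 and KP pre-depletion. The piece listed as Foxa1_1 went the other way post-depletion, at 7.94 CPM in KPF1F2 and 2.77 CPM in KP. Pre-depletion it was at 5.35 CPM in KPF1F2 and 4.17 CPM in KP, with overlapping intervals. The sources used here do not say which part of the gene each piece covers.

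Each group had 1 library and no replicate, so no test could be made. Each difference is between libraries, and the 95% intervals cover counting error only. The title of KPF1F2 pre-depletion begins with another number than the titles of the other 3 libraries, so genotype and that number cannot be told apart before depletion. The labels do not say what the number stands for. Nuclear or rarely polyadenylated RNAs differed along with it. Gm42418, a gene model that overlaps ribosomal RNA, was lower in KPF1F2 than in KP in every pre-depletion class, at 1151 to 16958 CPM in KPF1F2 and 11264 to 59356 CPM in KP. Post-depletion it was at 35331 CPM in KPF1F2 and 24335 CPM in KP in epithelial-like cells. In fibroblast-like cells post-depletion it was at 36328 CPM in KPF1F2 and 27770 CPM in KP. Of the 7 listed RNAs of this kind in the files, 2 of 6 compared were 2-fold lower in KPF1F2 in T cell-like, 3 of 6 in B cell-like, 2 of 4 in neutrophil-like and 6 of 7 in epithelial-like cells pre-depletion, where 1.73%, 3.57%, 25.1% and 3.49% of all genes were in the same 4 classes. Post-depletion 2 of 7 were lower in epithelial-like cells. The part of these RNA differences in the histone values was not tested.

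The 5 Hist1h1 genes lie on chromosome 13 of the GRCm38 build and H1f0 on chromosome 15, and each has 1 annotated transcript of 1 exon. Their positions in the GENCODE M21 annotation are chr13:23763666-23764406 on the plus strand for Hist1h1a, chr13:21779883-21780625 on the minus strand for Hist1h1b, chr13:23738808-23740367 on the plus strand for Hist1h1c, and chr13:23553262-23560686 on the plus strand for Hist1h1d. Hist1h1e lies at chr13:23620629-23622558 on the minus strand, and H1f0 at chr15:79028450-79030504 on the plus strand. Hist1h1e overlaps Hist1h2be and Gm11398 on its own strand, so its reads could have been split between features, and Hist1h2be is given beside it below. H1f0 overlaps Gm49544 on the other strand, and the sources used here do not say whether counting used strand.

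The ends of the transcripts are shown because they decide what a poly(A)-primed library can read. The histone stem-loop, with its 6 paired bases on each side in capitals, was found after the coding part of 3 of the 6 genes, with the same letters in all 3.
Hist1h1c, Hist1h1d and Hist1h1e: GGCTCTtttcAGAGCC
It began 28, 35 and 44 bases after the coding part of Hist1h1c, Hist1h1d and Hist1h1e. The annotated transcripts of these 3 genes ran on for 840, 4884 and 1153 bases past the loop, so the annotation holds forms longer than the stem-loop form. The transcript of Hist1h1a ended after 15 of the 16 loop bases, and that of Hist1h1b 3 bases after the coding part, before any loop. H1f0 had 1201 bases after its coding part and no such loop. A loop of this shape was present in 55 of 21901 protein-coding genes (0.2511%) and in 38 of 59 core histone genes (64.41%).

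The promoters are shown because Hist1h1b to Hist1h1e share a sequence, the H1 box, that the other members lack within this window. Each line holds the 250 bases before the annotated start, 5′ to 3′ on the gene's strand, from RefSeq on GRCm38.p6, where all 6 genes were matched. Capitals mark the H1 box, AAACACA. The windows are chr13:21780626-21780875 (minus strand) for Hist1h1b, chr13:23738557-23738806 (plus) for Hist1h1c, chr13:23622559-23622808 (minus) for Hist1h1e, chr13:23763418-23763667 (plus) for Hist1h1a and chr15:79027962-79028211 (plus) for H1f0.
Hist1h1b: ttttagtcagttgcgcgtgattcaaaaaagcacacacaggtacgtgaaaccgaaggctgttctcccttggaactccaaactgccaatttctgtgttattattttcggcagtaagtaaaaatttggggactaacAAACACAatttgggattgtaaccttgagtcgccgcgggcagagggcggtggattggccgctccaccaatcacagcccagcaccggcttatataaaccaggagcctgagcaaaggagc
Hist1h1c: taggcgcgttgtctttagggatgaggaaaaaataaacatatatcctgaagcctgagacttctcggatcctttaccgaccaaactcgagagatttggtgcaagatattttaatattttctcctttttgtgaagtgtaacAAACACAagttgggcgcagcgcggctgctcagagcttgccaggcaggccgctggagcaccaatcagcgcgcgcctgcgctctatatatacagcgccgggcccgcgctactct
Hist1h1e: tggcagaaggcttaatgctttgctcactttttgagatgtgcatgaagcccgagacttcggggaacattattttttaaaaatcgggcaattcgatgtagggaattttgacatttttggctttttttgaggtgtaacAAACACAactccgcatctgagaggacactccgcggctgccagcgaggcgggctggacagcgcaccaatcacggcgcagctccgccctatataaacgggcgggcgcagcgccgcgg
Hist1h1a: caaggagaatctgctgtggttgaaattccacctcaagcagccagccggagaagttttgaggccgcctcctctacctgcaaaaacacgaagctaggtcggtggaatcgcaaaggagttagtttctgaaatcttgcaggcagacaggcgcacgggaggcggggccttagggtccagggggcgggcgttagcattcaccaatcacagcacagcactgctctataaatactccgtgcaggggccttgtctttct
H1f0: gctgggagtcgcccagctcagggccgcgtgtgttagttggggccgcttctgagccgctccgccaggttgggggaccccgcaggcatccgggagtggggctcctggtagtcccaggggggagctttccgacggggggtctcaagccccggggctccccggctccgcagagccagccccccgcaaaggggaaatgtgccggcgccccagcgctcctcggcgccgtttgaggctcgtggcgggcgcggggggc
The H1 box began at bases −117, −112 and −115 from the start in Hist1h1b, Hist1h1c and Hist1h1e. Hist1h1d held it at base −122, in a window from 23554782 to 23555031 that lies inside its longer GENCODE transcript. Motifs were searched on both strands. Of all 32851 promoters of this length, 6.246% held AAACACA, 33.85% held CCAAT and 12.368% held TATAAA, and 0.3896% held all of these. Hist1h1b, Hist1h1d and Hist1h1e had all of them, Hist1h1c had AAACACA and CCAAT, and Hist1h1a had CCAAT and TATAAA. H1f0 had none of these letters in its window, which was 74.4% G or C, against 47.6% to 54.8% in the other members. That window ends at 79028211, before the GENCODE start of H1f0 at 79028450. The bases between were not searched, so the absence holds for the window only.

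Levels by cell type differed in order from gene to gene, as the plot of CPM by class and library shows. Hist1h1c was highest in neutrophil-like cells, at 211 CPM in KPF1F2 and 450 CPM in KP pre-depletion, with intervals (189 to 234 and 400 to 505 CPM) apart from the next class in each library. Below neutrophils the order differed between libraries: alveolar macrophage-like cells were next in KPF1F2, at 98.2 CPM, and B cell-like cells in KP, at 148 CPM. Post-depletion Hist1h1c was highest in the mesothelial-like cells of KPF1F2, at 107 CPM, a class too small in KP to compare.

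**Figure D1:**
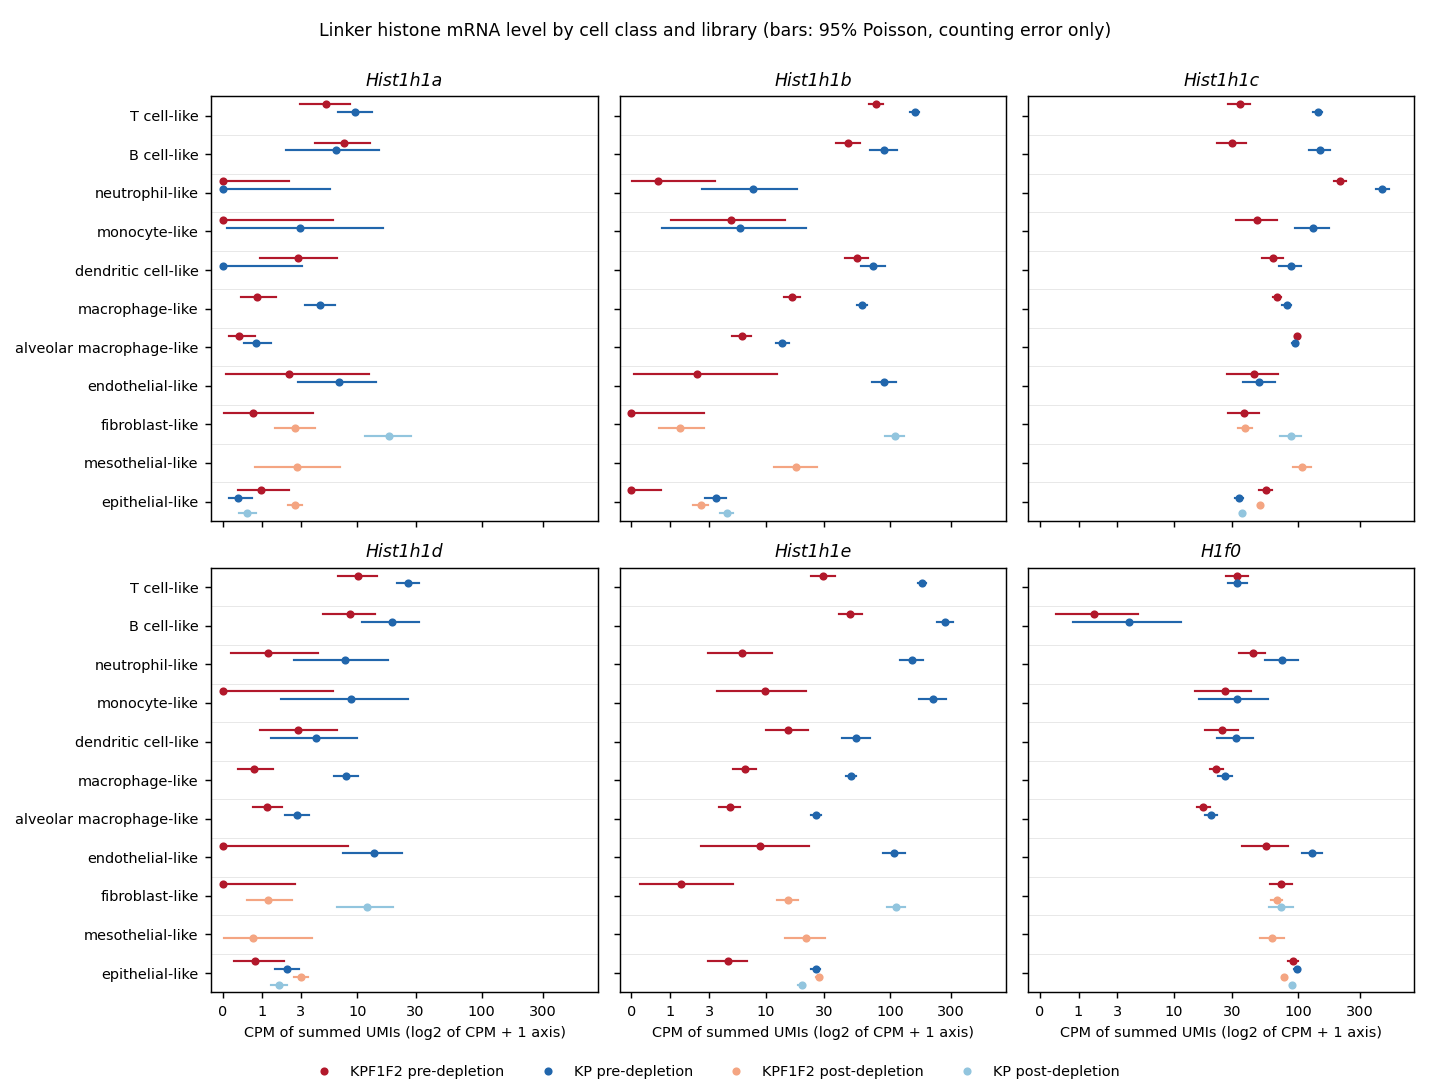
Levels of the 6 linker histone genes by cell class and library, as CPM on a log2 axis with 1 CPM added and exact 95% Poisson intervals as bars, for classes of at least 50 cells. KPF1F2 pre-depletion is red, KP pre-depletion blue, KPF1F2 post-depletion orange and KP post-depletion light blue. Hist1h1c peaks in neutrophil-like cells of both pre-depletion libraries, and H1f0 is lowest in B cell-like cells.

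Hist1h1b, a replication-dependent H1, was highest in T cell-like cells, at 77.8 CPM in KPF1F2 and 157 CPM in KP, with intervals apart from the next class in both. Among those T cell-like cells, 10 cells held 89.6% of its UMIs in KPF1F2 and 92.2% in KP. In neutrophil-like cells it was barely detected, with 1 UMI in 523 KPF1F2 cells and 5 UMIs in 188 KP cells. Hist1h1e was highest in B cell-like cells, at 48.9 CPM in KPF1F2, with an interval apart from that of T cell-like cells at 29.8 CPM. Of its 90 UMIs in those B cell-like cells 28 lay in 1 cell, a spread over cells that the interval does not cover. In KP Hist1h1e was at 269 CPM in B cell-like cells. The KP intervals of B cell-, monocyte-, T cell-, neutrophil- and endothelial-like cells each overlapped the next. H1f0 had another order. It was highest in epithelial-like cells of KPF1F2 at 90.9 CPM, with an interval that overlapped that of fibroblast-like cells at 73.0 CPM, and in endothelial-like cells of KP at 129 CPM. B cell-like cells had 3 H1f0 UMIs in each library, or 1.63 CPM in KPF1F2 and 3.88 CPM in KP. Hist1h1a and Hist1h1d were low, with at most 18.4 and 26.1 CPM in any class. Of the 144 values of 6 genes in 24 classes of a library, 69 reached 20 CPM. Free RNA was gauged by Epcam, an epithelial gene, which was at 23.1 CPM in KPF1F2 and 20.4 CPM in KP in T cell-like cells, against 769 and 647 CPM in epithelial-like cells of KPF1F2 and KP pre-depletion. In alveolar macrophage-like cells it was at 23.1 CPM in KPF1F2 and 10.7 CPM in KP, and in macrophage-like cells at 43.0 CPM in KPF1F2 and 130.2 CPM in KP. Its part in the macrophage values of the members was not tested.

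In T cell-like cells before depletion, Hist1h1b, Hist1h1c, Hist1h1d and Hist1h1e lay lower in KPF1F2, while the ratio intervals of Hist1h1a (0.280 to 1.03, with 15 UMIs in KPF1F2 and 37 in KP) and of H1f0 included 1. Hist1h1e had 29.8 CPM in 603 KPF1F2 cells and 177 CPM in 753 KP cells (85 and 686 UMIs), a log2 fold of −2.53 with 1 CPM added and a count ratio of 0.168 (95% interval 0.133 to 0.211). Hist1h1c had 34.4 CPM in KPF1F2 and 142 CPM in KP, a log2 fold of −2.02 and a ratio of 0.242 (0.193 to 0.301). H1f0 had 33.0 CPM in KPF1F2 and 33.1 CPM in KP, a ratio of 0.996 (0.755 to 1.31). Hist1h1b, at 77.8 CPM in KPF1F2 and 157 CPM in KP, lay just past the 2-fold line with a log2 fold of −1.0001. Counting as lower a gene with a mean of at least 20 CPM over both libraries and at least 2-fold less in KPF1F2, 3 of the 4 members with that mean were lower, where 1.73% of 5270 genes were. This contrast chose the members, so nothing is read from the count.

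Hist1h1e and Hist1h1c lay lower in KPF1F2 in each T cell-like cluster, and Hist1h1b in clusters 6 and 17 only. In cluster 6, led by Cd3g, Il7r and Ctla4, Hist1h1e was at 30.7 CPM in KPF1F2 and 197 CPM in KP, and Hist1h1c at 26.0 CPM in KPF1F2 and 147 CPM in KP. Cluster 17, led by Il17a and Cxcr6, had Hist1h1e at 21.8 CPM in KPF1F2 and 133 CPM in KP. Cluster 10, led by Ccl5, Nkg7 and Cd8b1 and also high in natural killer cell markers, had Hist1h1e at 34.0 CPM in KPF1F2 and 171 CPM in KP. The clusters differed in Hist1h1b, which was higher in KPF1F2 in cluster 10, at 80.1 CPM against 9.29 CPM in KP (87 and 8 UMIs). In cluster 6 it was lower, at 83.6 CPM in KPF1F2 and 210 CPM in KP. Few cells carried Hist1h1b: over the whole class 21 KPF1F2 cells and 35 KP cells had a UMI of it. Of the 603 KPF1F2 cells of the class, 243 lay in cluster 10 and 225 in cluster 6, and of the 753 KP cells 169 lay in cluster 10 and 434 in cluster 6.

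B cell-like cells showed Hist1h1e and Hist1h1c lower in KPF1F2 as well. Hist1h1e was at 48.9 CPM in 361 KPF1F2 cells and 269 CPM in 169 KP cells, a log2 fold of −2.44 and a ratio of 0.182 (0.140 to 0.234). Hist1h1c was at 29.9 CPM in KPF1F2 and 148 CPM in KP, a log2 fold of −2.27. Hist1h1b was at 46.7 CPM in KPF1F2 and 89.3 CPM in KP, a log2 fold of −0.92, and it came from few cells: 86 UMIs in 6 KPF1F2 cells, 58 of them in 1 cell, and 69 UMIs in 11 KP cells, 30 of them in 1 cell. That fold was 0.73 with clusters made at a resolution of 0.5. Of the 3 members with the mean needed, 2 were lower, where 3.57% of genes were.

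Neutrophil-like cells had little Hist1h1e in KPF1F2. Its level was 6.15 CPM in 523 KPF1F2 cells and 148 CPM in 188 KP cells (10 and 95 UMIs), a log2 fold of −4.38 and a ratio of 0.0417 (0.0194 to 0.0800). Hist1h1c was at 211 CPM in KPF1F2 and 450 CPM in KP, a log2 fold of −1.09, and H1f0 at 43.6 and 74.5 CPM in KPF1F2 and KP, a log2 fold of −0.76. Hist1h1a had 0 UMIs in both libraries. Here 25.1% of 4491 genes were lower, more than in any other class, beside 2 of 3 members. The median of all genes moved too: scaling by TMM instead of by totals added 0.77 to every log2 fold of this class, which left Hist1h1c at −0.32, Hist1h1e at −3.66 and H1f0 at −0.003.

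Neutrophil-like cells were split between clusters 12 and 14, which held 226 and 297 KPF1F2 cells but 156 and 32 KP cells. Within cluster 12, led by Il1b, S100a9 and Ccl3, Hist1h1e was at 5.93 CPM in KPF1F2 and 172 CPM in KP, and Hist1h1c at 344 and 491 CPM in KPF1F2 and KP, a log2 fold of −0.51. H1f0 there was at 104 CPM in KPF1F2 and 88.7 CPM in KP, the opposite sign. Few cells carried H1f0 in the whole class: its 71 UMIs in KPF1F2 lay in 13 of 523 cells, with 95.8% of them in 10 cells, and its 48 UMIs in KP lay in 18 of 188 cells. Cluster 14, led by S100a9, Retnlg and Ifitm1, had 1 UMI of H1f0 in each library, and Hist1h1c at 116 CPM in KPF1F2 and 263 CPM in KP. The plot of levels by cluster shows that Hist1h1e kept its sign in every cluster drawn, while H1f0 did not. With each cell thinned to 3000 UMIs, a Hist1h1e UMI was found in 2.05% of 244 KPF1F2 cells and 26.4% of 110 KP cells, leaving out 279 and 78 shallower cells in KPF1F2 and KP. Unthinned the shares were 1.91% in KPF1F2 and 21.3% in KP, at medians of 2910 and 3184.5 UMIs. No class here is known to lack H1 mRNA; the lowest thinned share of any class was 0.552%, in epithelial-like cells of KPF1F2 pre-depletion (median 21170 UMIs).

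**Figure D2:**
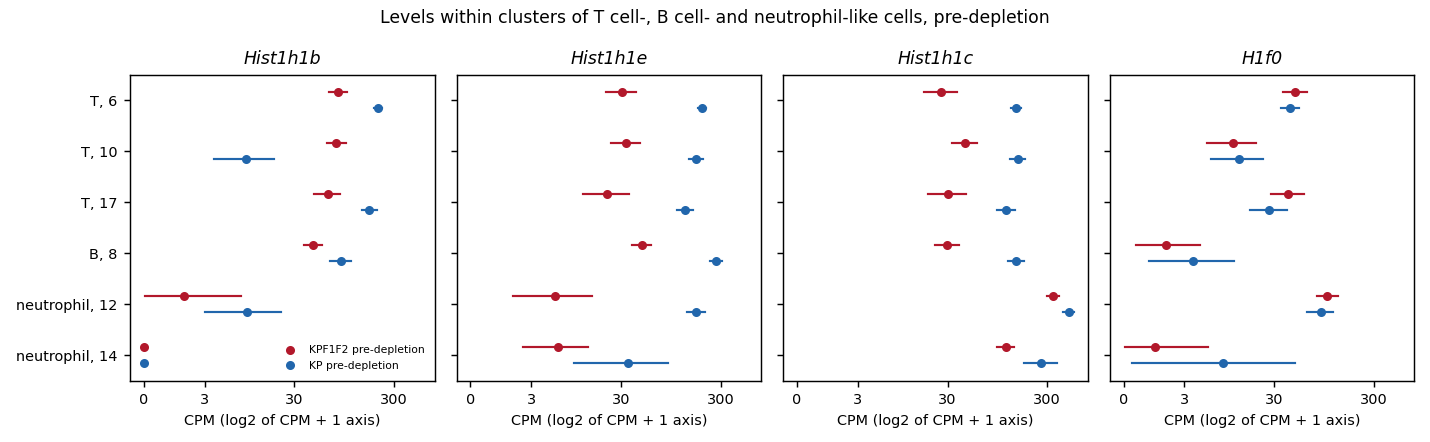
Levels of Hist1h1b, Hist1h1e, Hist1h1c and H1f0 within the T cell-, B cell- and neutrophil-like clusters before depletion, as CPM with exact 95% Poisson intervals, with KPF1F2 above KP in each cluster. Hist1h1e lies lower in KPF1F2 in all 6 clusters drawn, though in cluster 14 with 6 UMIs in KPF1F2 and 4 UMIs in 32 KP cells. Hist1h1b lies higher in KPF1F2 in T cell-like cluster 10, with 87 UMIs in KPF1F2 and 8 in KP.

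The other pre-depletion classes differed in which members were low. Monocyte-like cells had Hist1h1e at 9.86 CPM in 90 KPF1F2 cells and 216 CPM in 50 KP cells (6 and 73 UMIs), and Hist1h1c at 47.7 CPM in KPF1F2 and 130 CPM in KP. Both of these, of 3 members with the mean needed, were counted lower, where 9.87% of genes were. Macrophage-like cells had Hist1h1e at 6.57 CPM in KPF1F2 and 49.5 CPM in KP and Hist1h1b at 16.5 CPM in KPF1F2 and 60.3 CPM in KP, and these made 2 of 4, where 2.16% of genes were lower. Their Hist1h1c differed less, at 68.5 CPM in KPF1F2 and 81.0 CPM in KP. Alveolar macrophage-like cells had Hist1h1c at 98.2 CPM in 663 KPF1F2 cells and 94.4 CPM in 886 KP cells, a ratio of 1.04 (0.970 to 1.12), and it was the only member with the mean needed, so that 0 of 1 was lower, where 0.709% of genes were. Hist1h1e was below that mean there, at 4.78 CPM in KPF1F2 and 25.9 CPM in KP.

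Dendritic cell-like cells had Hist1h1e at 15.3 CPM in KPF1F2 and 54.2 CPM in KP, which was 1 of 4 members counted lower, where 3.42% of genes were. Of its 64 KP UMIs there 25 lay in 1 cell and 89.1% in 10 cells. Endothelial-like cells had Hist1h1e at 8.96 CPM in 80 KPF1F2 cells and 108 CPM in 130 KP cells, and H1f0 at 56.0 and 129 CPM in KPF1F2 and KP, a log2 fold of −1.19. Their Hist1h1b had 1 UMI in KPF1F2 and 91 UMIs in KP, and outside the cycling cells 0 and 2 UMIs in KPF1F2 and KP. The 91 UMIs lay in 7 cells, with 57 of them in 1 cell. Together 3 of 4 members were counted lower in this class, where 4.87% of genes were. Hist1h1d had 0 UMIs in KPF1F2 and 14 in KP, at least 2.06-fold lower with the 0 set to 3 counts. In endothelial- and macrophage-like cells Hist1h1b and Hist1h1e reached the mean needed through KP alone. Hist1h1e did so too in monocyte-, neutrophil- and dendritic cell-like cells. Such a member is likely to be counted lower, so these counts are no measure of the members as a whole.

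Epithelial-like cells, the class that holds the tumour cells, stood apart in Hist1h1c before depletion. It was at 55.6 CPM in 195 KPF1F2 cells and 34.2 CPM in 782 KP cells, a log2 fold of 0.68 and a ratio of 1.63 (1.41 to 1.87). Hist1h1e was at 4.58 CPM in KPF1F2 and 25.7 CPM in KP (24 and 494 UMIs), a log2 fold of −2.26, and H1f0 at 90.9 and 97.6 CPM in KPF1F2 and KP. Hist1h1b had 0 UMIs in KPF1F2 and 67 in KP, at least 6.10-fold lower with 3 counts for the 0. Since Hist1h1e had a mean below 20 CPM, 0 of the 2 members with that mean were counted lower, where 3.49% of genes were.

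**Figure D3:**
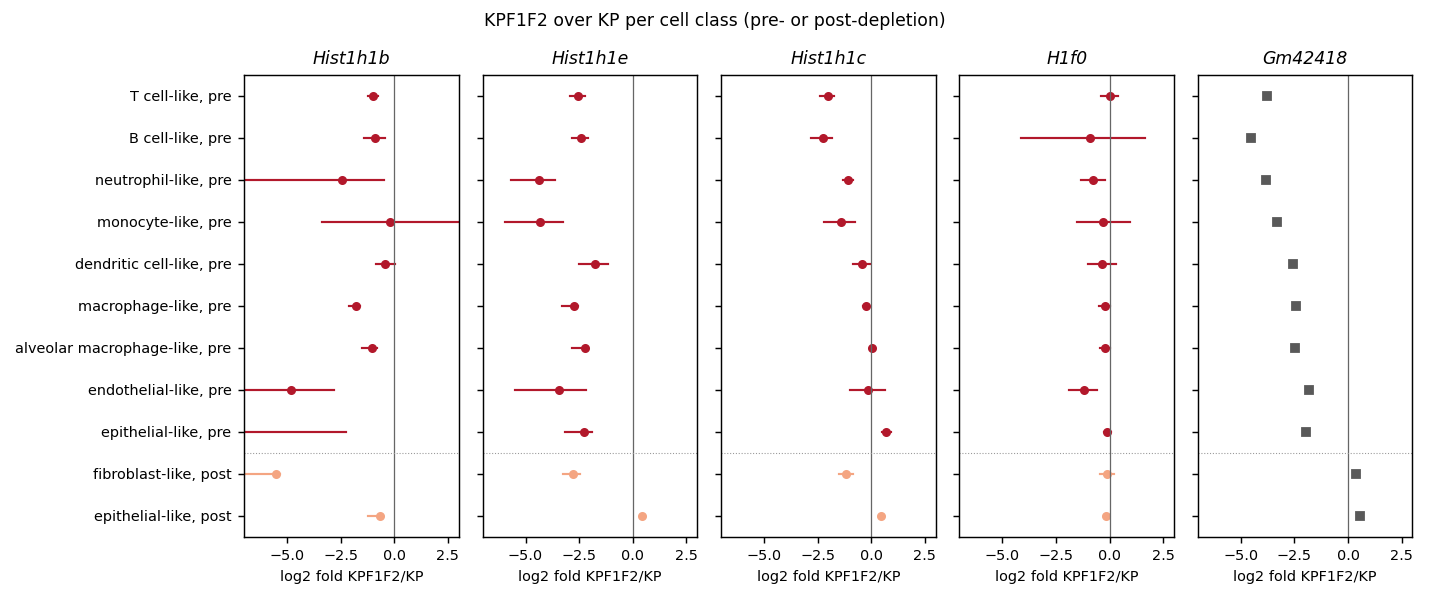
Log2 folds of KPF1F2 over KP by cell class for 4 linker histone genes and for the gene model Gm42418, with pre-depletion classes above and post-depletion classes below the dotted line. Bars are 95% intervals of the count ratio, cut at the axis ends, and no point is drawn where KPF1F2 had 0 UMIs. Hist1h1e and Gm42418 lie left of 0 in every pre-depletion class, and both lie right of 0 in epithelial-like cells post-depletion. In fibroblast-like cells post-depletion they part, with Hist1h1e left and Gm42418 right of 0 (36328 CPM in KPF1F2 and 27770 CPM in KP).

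Post-depletion, the pair of libraries whose titles share a number, epithelial-like cells showed small differences. Hist1h1c was at 50.04 CPM in 1948 KPF1F2 cells and 36.3 CPM in 3248 KP cells, a log2 fold of 0.45 and a ratio of 1.38 (1.29 to 1.47). Hist1h1e was at 27.2 CPM in KPF1F2 and 19.9 CPM in KP, a log2 fold of 0.43, and the sign was the opposite of that before depletion. H1f0 was at 77.7 CPM in KPF1F2 and 88.4 CPM in KP, a log2 fold of −0.18. None of the 3 members with the mean needed reached 2-fold, where 8.73% of 5725 genes did in either direction. Hist1h1a was higher in KPF1F2, at 2.61 CPM against 0.532 CPM in KP (124 and 24 UMIs), but 67.7% of its KPF1F2 UMIs came from 10 cells.

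Different clusters made up this class in the 2 genotypes. Clusters 2, 9 and 0, led by genes such as Sftpd, Krt7 and Retnla, held 834, 397 and 393 of the KPF1F2 cells. Clusters 3, 0, 4 and 7, with Gkn2, Retnla, S100a14 and Meg3 among their leading genes, held 751, 736, 644 and 542 of the KP cells. In cluster 0, which both shared, Hist1h1c was at 22.5 CPM in KPF1F2 and 20.6 CPM in KP, a ratio of 1.09 (0.890 to 1.34), and Hist1h1e at 30.2 CPM in KPF1F2 and 32.6 CPM in KP, a ratio of 0.927 (0.784 to 1.097). H1f0 there was at 87.8 CPM in KPF1F2 and 86.5 CPM in KP. The Hist1h1c difference of the whole class was thus not seen at this size in cluster 0. Outside the cycling cells of the class, Hist1h1e was at 15.98 CPM in KPF1F2 and 15.57 CPM in KP.

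Fibroblast-like cells post-depletion had most members lower in KPF1F2. Hist1h1b was at 1.38 CPM in 425 KPF1F2 cells and 109 CPM in 109 KP cells (9 and 137 UMIs), a log2 fold of −5.53. It came from few cells: the 9 UMIs lay in 1 KPF1F2 cell and the 137 UMIs in 6 KP cells, with 52 of them in 1 cell. Hist1h1e was at 15.4 CPM in KPF1F2 and 112 CPM in KP, a log2 fold of −2.78, with 48.0% of its KPF1F2 UMIs and 90.7% of its KP UMIs in 10 cells. Hist1h1c was at 38.1 and 87.0 CPM in KPF1F2 and KP, a log2 fold of −1.17. H1f0 was at 67.4 CPM in KPF1F2 and 73.4 CPM in KP, a ratio of 0.918 (0.732 to 1.16). Of 4 members with the mean needed, 3 were lower, where 6.36% of genes were. Hist1h1b and Hist1h1e reached that mean through KP alone, so this count is no measure of the members as a whole.

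The cycling share moved with this result. Cycling cells were 3.29% of KPF1F2 fibroblast-like cells and 9.17% of those of KP. Among the other cells, Hist1h1b had 0 UMIs in KPF1F2 and 2 in KP, and Hist1h1e was at 10.6 CPM in KPF1F2 and 18.9 CPM in KP, a log2 fold of −0.77. Hist1h1c stayed lower there, at 31.6 CPM in KPF1F2 and 70.2 CPM in KP, and was the 1 of 2 members counted lower, where 6.73% of genes were. Most KPF1F2 cells lay in cluster 16 (238 of 425), led by Dcn and Pi16, and most KP cells in cluster 11 (99 of 109), led by Mgp and Col3a1. The share of raised markers in cluster 11 was 1.0 for fibroblasts and 1.0 for mural cells (pericytes and smooth muscle). In cluster 16 the mural share was 0.417. The class may thus hold mural cells, and more so in KP. Within cluster 11, Hist1h1c was at 64.0 CPM in KPF1F2 and 90.3 CPM in KP, and Hist1h1e at 19.8 CPM in KPF1F2 and 121 CPM in KP.

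Libraries of the same genotype were set against each other as a yardstick. In KPF1F2 epithelial-like cells, Hist1h1e was at 27.2 CPM post-depletion and 4.58 CPM pre-depletion, a log2 fold of 2.34 and a ratio interval of 3.98 to 9.31. In KPF1F2 fibroblast-like cells it was at 15.4 CPM post-depletion and 1.43 CPM pre-depletion (100 and 2 UMIs, ratio interval 2.90 to 89.9). In KP epithelial-like cells it was at 19.9 CPM post-depletion and 25.7 CPM pre-depletion, a log2 fold of −0.35. The KPF1F2 pre-depletion library was thus the low value of Hist1h1e in both of its classes that could be set against the same genotype.

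Hist1h1c and H1f0 differed less between libraries of a genotype. Hist1h1c in epithelial-like cells was at 50.04 CPM post-depletion and 55.6 CPM pre-depletion in KPF1F2, and at 36.3 CPM post-depletion and 34.2 CPM pre-depletion in KP, so both KPF1F2 libraries lay above both KP libraries. In KPF1F2 fibroblast-like cells it was at 38.1 CPM post-depletion and 37.2 CPM pre-depletion. H1f0 in epithelial-like cells was at 77.7 CPM post-depletion and 90.9 CPM pre-depletion in KPF1F2, and at 88.4 CPM post-depletion and 97.6 CPM pre-depletion in KP. No member with a mean of at least 20 CPM reached 2-fold in these comparisons: 0 of 2 in KPF1F2 epithelial-like cells, 0 of 3 in KP epithelial-like cells and 0 of 2 in KPF1F2 fibroblast-like cells, where 1.43%, 0.887% and 2.45% of genes did. Hist1h1e had a mean below 20 CPM in both KPF1F2 comparisons. Of 7 RNAs listed as nuclear or poorly polyadenylated, 4 were higher post-depletion by 2-fold in KPF1F2 epithelial-like cells and 4 in KPF1F2 fibroblast-like cells, and 0 in KP epithelial-like cells. Gm42418 was at 36328 CPM post-depletion and 10188 CPM pre-depletion in the KPF1F2 fibroblast-like cells. Whether these RNAs and Hist1h1e shared a source was not tested.

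Cells in division were then set against other cells of the same class and library. A cell was called cycling when it had UMIs of at least 3 genes, and at least 4 UMIs per 10000, of 49 S phase and mitosis genes that include no histone. Hist1h1b was almost confined to these cells. In T cell-like cells it was at 351 CPM in 65 cycling cells and 1.79 CPM in 538 other cells of KPF1F2, and at 987 CPM in 64 cycling cells and 10.6 CPM in 689 other cells of KP. Cycling cells were 10.8% of the KPF1F2 T cell-like cells and held 21.8% of their UMIs but 98.2% of their Hist1h1b UMIs. In KP they were 8.50% of cells and held 14.95% of UMIs and 94.2% of Hist1h1b UMIs. The share of Hist1h1b UMIs in cycling cells was 88.1% to 100% in the 9 class and library pairs.

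Other replication-dependent members were higher in cycling cells by less. Hist1h1e in T cell-like cells was at 83.8 CPM in cycling and 14.8 CPM in other cells of KPF1F2, a log2 fold of 2.43, and at 605 and 102 CPM in cycling and other cells of KP, a log2 fold of 2.56. Over the 9 pairs its log2 fold lay between 1.23, in KP epithelial-like cells pre-depletion, and 4.19, in KP macrophage-like cells. Hist1h1d in KP T cell-like cells was at 104 CPM in cycling and 12.5 CPM in other cells. Hist1h1a in KP T cell-like cells was at 48.4 CPM in cycling and 2.74 CPM in other cells.

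**Figure D4:**
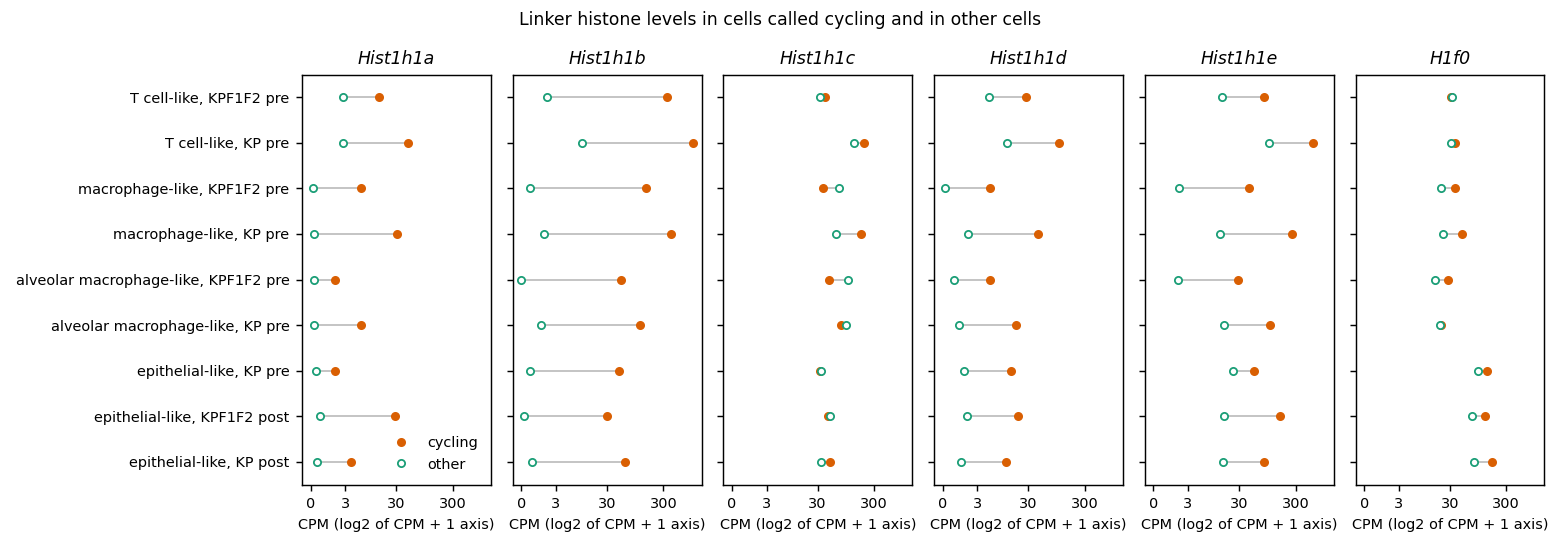
Levels of the 6 linker histone genes in cycling cells (filled orange) and other cells (open green) of 9 class and library pairs, as CPM on a log2 axis with 1 CPM added. The grey line joins the levels of both kinds of cell and is not an interval. Hist1h1b and Hist1h1e lie higher in cycling cells in every pair, and Hist1h1c does not.

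Hist1h1c followed cycling in some pairs and not in others. In T cell-like cells of KPF1F2 it was at 40.3 CPM in cycling and 32.7 CPM in other cells, a ratio interval of 0.749 to 1.96, and in those of KP at 201 CPM in cycling and 132 CPM in other cells, an interval of 1.23 to 1.87. Alveolar macrophage-like cells of KPF1F2 had it at 48.2 CPM in cycling and 105 CPM in other cells, a log2 fold of −1.10, and 5.66% of its UMIs there came from cycling cells, which were 8.60% of the class. Macrophage-like cells differed by library: the level was 37.1 CPM in cycling and 72.4 CPM in other cells of KPF1F2, but 176 and 64.8 CPM in cycling and other cells of KP. The difference between these libraries was not tested.

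H1f0, the replacement H1, ranged from about even to just over 2-fold higher in cycling cells. Its log2 folds over the 9 pairs ran from −0.04, in KPF1F2 T cell-like cells at 32.2 CPM in cycling and 33.2 CPM in other cells, to 1.14 (ratio interval 1.66 to 3.04), in KP macrophage-like cells at 50.5 CPM in cycling and 22.4 CPM in other cells. In epithelial-like cells post-depletion it was at 127 CPM in cycling and 73.7 CPM in other cells of KPF1F2, and at 170 and 82.8 CPM in cycling and other cells of KP (ratio interval 1.87 to 2.26). It passed the 2-fold line in KP macrophage-like and KP post-depletion epithelial-like cells.

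Counts of members at least 2-fold higher in cycling cells, with a mean of at least 20 CPM, stand beside the share of all genes that were. In T cell-like cells they were 2 of 4 in KPF1F2, where 5.83% of genes were higher, and 4 of 6 in KP, where 5.03% were. Macrophage-like cells had 2 of 4 in KPF1F2 (5.01% of genes) and 5 of 5 in KP (4.42%), and alveolar macrophage-like cells 1 of 3 in KPF1F2 (4.96%) and 2 of 4 in KP (3.54%). Epithelial-like cells had 1 of 3 in KPF1F2 post-depletion (3.92%), 3 of 4 in KP post-depletion (2.19%) and 2 of 4 in KP pre-depletion (2.49%). Some members, such as Hist1h1b, reach that mean through the cycling cells alone, so these shares are no measure of the 6 genes as a whole. Over all 6 members, with no minimum level, the median log2 fold of T cell-like cells was 2.11 in KPF1F2 and 2.76 in KP. The median of all genes with a mean of at least 20 CPM was 0.09 in KPF1F2 and 0.07 in KP, so the 2 medians differ in the level asked for.

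The contrast that chose the members can also be described by kind of cell, for T cell-like cells in both kinds and for B cell-like cells, of which 8 in KPF1F2 and 5 in KP were cycling, in the others only. Among the cycling T cell-like cells Hist1h1e was at 83.8 CPM in KPF1F2 and 605 CPM in KP, a log2 fold of −2.84, and among the others at 14.8 CPM in KPF1F2 and 102 CPM in KP, a log2 fold of −2.71. Hist1h1c among the other T cell-like cells was at 32.7 CPM in KPF1F2 and 132 CPM in KP. Among B cell-like cells outside the cycle Hist1h1e was at 29.9 CPM in KPF1F2 and 243 CPM in KP. Neutrophil-like cells had 1 cycling cell in each library and monocyte-like cells 0. In macrophage-like cells Hist1h1c was lower in KPF1F2 in the cycling cells, with a log2 fold of −2.21, while the others gave a log2 fold of 0.16. Mki67, a marker of dividing cells, was at 71.5 CPM in KPF1F2 and 74.2 CPM in KP in T cell-like cells.

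Cycling cells were further parted by whether S phase or G2 and M phase genes gave more of their UMIs. The lists held 18 and 31 genes in the files, and their sums were not scaled for the number or level of the genes. The parts are thus named after the lists, and the phase of a cell was not measured. Hist1h1e and Hist1h1c lay lower in the S phase part of all 5 groups that had at least 20 cells of each kind. In KPF1F2 T cell-like cells Hist1h1b was at 174 CPM in 35 cells with more S phase genes and 530 CPM in 30 cells with more G2 and M genes. In KPF1F2 epithelial-like cells post-depletion Hist1h1e was at 52.4 CPM in the S phase part (26 cells). It was at 223 CPM in the G2 and M part (71 cells), a log2 fold of −2.07. In KP epithelial-like cells post-depletion Hist1h1b was at 52.9 CPM in the S phase part (39 cells). It was at 64.7 CPM in the G2 and M part (113 cells), a ratio interval of 0.529 to 1.22. H1f0 had log2 folds of −1.07 to −2.19 in 4 of these groups. In KPF1F2 T cell-like cells the H1f0 log2 fold of −0.58 rested on 8 UMIs in the S phase part and 12 UMIs in the G2 and M part. Its ratio interval was 0.235 to 1.76. These parts rest on 24 to 113 cells each.

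Related genes were read from lists. The 4 further linker histones Hist1h1t, H1foo, H1fnt and Hils1 had at most 3 UMIs in any class. H1fx, another replacement H1, was at 16.3 CPM in KPF1F2 and 35.9 CPM in KP in fibroblast-like cells post-depletion. Unlike H1f0 it was far higher in cycling epithelial-like cells, at 45.7 CPM in cycling and 1.55 CPM in other cells of KPF1F2 post-depletion, and 40.0 and 6.66 CPM in cycling and other cells of KP post-depletion.

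Core histones of the Hist clusters, the proteins around which DNA is wound, were mostly too low to compare. Of 62 genes, 3 had the mean needed in T cell-like cells pre-depletion, of which 1 was lower in KPF1F2, namely Hist1h4d at 9.11 CPM in KPF1F2 and 43.2 CPM in KP. Hist1h2ap was at 89.7 CPM in KPF1F2 and 117 CPM in KP. In B cell-like cells 2 of 6 were lower, among them Hist1h3e at 12.5 CPM in KPF1F2 and 45.3 CPM in KP, and in neutrophil-like cells 0 of 4. Hist1h4d and Hist1h3e reached the mean needed in these classes through KP alone. The summed core histones were at 276 CPM in KPF1F2 and 438 CPM in KP in T cell-like cells, where the summed Hist1h1a to Hist1h1e were at 157 and 512 CPM in KPF1F2 and KP. In neutrophil-like cells the core sum was 660.0 CPM in KPF1F2 and 849 CPM in KP, and the linker sum 219 CPM in KPF1F2 and 613 CPM in KP. Hist1h2be, which overlaps Hist1h1e, was at 6.31 CPM in KPF1F2 and 14.5 CPM in KP in T cell-like cells and at 57.8 CPM in KPF1F2 and 79.2 CPM in KP in neutrophil-like cells.

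Hist1h2bc, a core histone gene, was higher in KPF1F2 epithelial-like cells in both states, at 311 CPM in KPF1F2 and 168 CPM in KP post-depletion and at 249.7 CPM in KPF1F2 and 131 CPM in KP pre-depletion. Replacement histones such as H2afz and H3f3b, made at all times of the cell cycle, had 0 of 8 genes lower in T cell-like and 0 of 8 in B cell-like cells. Genes for histone mRNA transcription and processing had 0 of 8 lower in T cell-like cells. Slbp was at 187 CPM in KPF1F2 and 103 CPM in KP there. Of the H1 chaperones and related genes, 0 of 5 were lower in T cell-like and B cell-like cells and 4 of 5 in neutrophil-like cells, among them Ptma at 377 CPM in KPF1F2 and 950 CPM in KP. In neutrophil-like cells 25.1% of all genes were lower, as given above.

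Core histones were also counted in cycling cells. In KPF1F2 T cell-like cells 3 of the 3 compared were 2-fold higher in cycling cells, where 5.83% of all genes were, and in KP 10 of 11, where 5.03% were. Like Hist1h1b, such genes can reach the mean of 20 CPM through the cycling cells alone, so these counts do not describe the list as a whole. Against the same shares of all genes, the replacement histones had 4 of 8 higher in both libraries, among them H2afz at 3031 CPM in cycling and 1211 CPM in other cells of KPF1F2, and 4058 CPM in cycling and 1352 CPM in other cells of KP. Chaperones had 3 of 5 higher in each.

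Over the 24 classes of a library, the genes most like each member were found by Pearson's r of log2(CPM + 1), given as a description since the points share libraries and depth. Hist1h1b was most like the core histone gene Hist1h2ap (0.910), then Khdrbs1 (0.814), Topbp1 (0.802), Exosc8 (0.799) and Hnrnpa0 (0.794). Hist1h1e was most like Sf3b2 (0.878), Eml4, Angel2, Fam76b and Sltm (0.812), and Hist1h1c most like Zzef1 (0.781), Per1, Vps4b, Pts and Xpo6 (0.748). H1f0 was most like Tmem159 (0.859), Tmem59, Oaz2, Ndrg1 and Sntb2 (0.820). Hist1h1a and Hist1h1d were below the mean of 20 CPM needed. Among the members themselves, Hist1h1d and Hist1h1e were most alike (0.893) and Hist1h1b and Hist1h1d next (0.770). H1f0 had values of −0.401 to −0.065 with the 5 Hist1h1 genes, and Hist1h1c values of −0.127 to 0.413 with the other Hist1h1 genes.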

How the data were processed

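Per the file headers, Cell Ranger 6.0.0 made the deposited matrices, whose values are counts of UMIs for each feature and droplet. The submitters' processing notes name mm10 as the build, and the labels' protocols name 10x 3′ kits of version 3.1. The annotation and strand setting were not given in the sources used here. All 6 members and the lists were chosen with earlier results of these data known.

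Cells needed 1000 UMIs and 500 genes, with no more than 20% of UMIs mitochondrial. The caller of doublets in scanpy 1.11.5 marked 0 to 10 cells per library, so the highest-scoring 0.8% per 1000 barcodes were removed (91 to 247 cells). Cells were clustered on 2000 variable genes, without histone and cycling genes, with 30 components and 15 neighbours at resolution 1 (igraph 0.11.9), with no batch correction. A class name needed 3 of its markers raised 2-fold over the median cluster, and a cluster of 91 cells stayed unnamed. UMIs were summed per class and library and given as CPM, for classes of 50 cells (20 for cycling cells). Folds are log2 with 1 CPM added. CPM have exact Poisson intervals, ratios exact conditional binomial and shares Clopper-Pearson ones (scipy 1.17.1). A count of 0 was set to 3 counts in bounds. No test was made, since each group had 1 library. The fold step was tested on simulated data. Other scalings used edgeR 4.0.16 (TMM) and DESeq2 1.42.0 size factors. Named genes were the 6 members, the other linker histones, of each list up to 4 genes by mean level, and the 5 genes most like each member. Hist1h2be was named for its overlap with Hist1h1e.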

Additional observations from a re-analysis of the deposited data

Results flagged for a closer look

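Hist1h1c had opposite signs between classes and libraries. In KPF1F2 over KP pre-depletion its log2 fold was 0.68 in epithelial-like cells and below 0 in 6 classes whose interval excluded a ratio of 1, the lowest being −2.27 in B cell-like cells. In cycling over other cells of KP pre-depletion it was −0.28 in alveolar macrophage-like cells and above 0 in 2 classes, up to 1.42 in macrophage-like cells. In macrophage-like cells the cycling fold was −0.95 in KPF1F2 and 1.42 in KP. Within epithelial-like cells, KPF1F2 over KP gave opposite signs by depletion state for Hist1h1d, 0.57 post-depletion and −0.83 pre-depletion, and for Hist1h1e, 0.43 post-depletion and −2.26 pre-depletion. None of these differences was tested, since each group had 1 library.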

How the results depend on the processing

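No paired analysis was possible because each group had 1 library. Of 1866 values of 282 results under the alternatives, 1585 stayed within their counting interval and 281 did not. A fold with 0 UMIs on either side had no bounded interval, so its values fell among the 1585 by rule. No called sign was reversed. The next counts add up calls of a gene in a class, so 1 member can count more than once. Over the 9 pre-depletion classes, 15 such calls of members were lower, where 0.709% to 25.1% of all genes were by class. Some of these members reached the mean needed through KP alone. Cells outside the cycle gave 9, and cycling cells of 3 classes gave 11, where all cells gave 5. Shares of all genes are not given for the alternatives. Other alternatives gave 11 to 21, among them TMM and size factors with 13. Over 9 class and library pairs, 22 calls of members were higher in cycling cells, where 2.19% to 5.83% of all genes were by pair. There were 8 when histone and cycling genes entered the clustering, and 11 with a cycling call of 2 genes and 2 UMIs per 10000. Other alternatives gave 16 to 26. Calls of core histones lower in KPF1F2, added up over the 9 pre-depletion classes, numbered 6. A mean of 5 CPM gave 44, cells outside the cycle gave 2, and cycling cells gave 19 where all cells gave 2. Alternatives chosen after seeing the data were cluster 12 alone, cluster 11 alone, T cell-like cells without cluster 10, epithelial-like cells without clusters 7, 13 and 19, and totals without Gm42418 and AY036118, which gave 15. With histone genes in the clustering, Hist1h1e in KPF1F2 alveolar macrophage-like cells turned to −1.47 in cycling over other cells. TMM moved the median of all genes by 0.77 in neutrophil-like, 0.24 in fibroblast-like, 0.19 in monocyte-like and 0.18 in dendritic cell-like cells; elsewhere by at most 0.11. The causes were not tested. Low counts limit Hist1h1a and Hist1h1d.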
